A study of Mus musculus with 9 samples.

Results

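The comparison described here is the addition of hypoxanthine to inosine: 3 RNA-seq libraries of mouse CD8+ T cells kept in medium with inosine and hypoxanthine against 3 libraries of the same cells kept in medium with inosine alone. These are 6 of the 9 libraries of the study, and all 20618 genes of the deposited tables entered the comparison, with no gene left out. Every difference is the level with hypoxanthine minus the level with inosine alone. The cells were primary wild-type CD8+ T cells, the cytotoxic lymphocytes that kill infected and malignant cells. They spent 24 h in medium with 2 mM inosine, or in 2 mM inosine combined with hypoxanthine, and 10% dialyzed FBS was present throughout, a serum freed of most small metabolites. For hypoxanthine the labels give 100 M, in which a unit prefix must be missing, and the dose is therefore not known here. Live cells, about 80% of the culture, were sorted before RNA was taken, and all libraries carry the same batch label, Day 0. The 3 libraries kept in 2 mM glucose were used only to help estimate the spread between libraries. The series title places the comparison in work on CARM1, a protein arginine methyltransferase, and on exosomes rich in hypoxanthine that alter inosine metabolism. Whether replicates are separate animals or cultures is not stated, so every p-value measures only how these libraries spread, which may be technical.

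Inosine is a nucleoside made of the base hypoxanthine joined to ribose. Purine nucleoside phosphorylase (Pnp) splits it into hypoxanthine and ribose 1-phosphate, and the ribose can enter the pentose phosphate pathway and glycolysis as a carbon source. Free hypoxanthine is the other product of that reaction. Hprt joins it to phosphoribosyl pyrophosphate (PRPP) to give inosine monophosphate, and xanthine dehydrogenase (Xdh) oxidises it to xanthine and uric acid. Activated CD8+ T cells are known for heavy demand on nucleotides, protein synthesis and secretion of granzymes and cytokines.

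The promoters of 3 gene groups are shown first because those groups carry much of what follows: interferon-inducible PYHIN genes that were higher with hypoxanthine, aminoacyl-tRNA synthetases that were lower, and a set of strongly lower genes with an AP-1 site. All sequences are from RefSeq promoters on GRCm38.p6, run 5′ to 3′ in the direction of transcription and lie before the annotated start. Each is the match with up to 25 bases on either side. The PYHIN genes encode DNA sensors and regulators of transcription that interferon induces. Capitals mark the interferon response element, searched as GAAA, any 2 bases, GAAA, on both strands. The elements of Ifi211 (chr1:173913049-173913108, minus strand, 37 bases before the start) and Ifi205 (chr1:174031855-174031914, minus strand, 134 bases before it) belong to genes that passed the test. So does the element of Ifi213 (chr1:173599311-173599370, minus strand, 73 bases before it), whose call was lost without glucose replicate 3, inosine replicate 1 or 3 or any 1 hypoxanthine library. Those of Ifi206 (chr1:173491324-173491383, minus strand), Ifi214 (chr1:173536002-173536061, minus strand) and Ifi208 (chr1:173673582-173673641, plus strand) belong to neighbours that did not pass.
Ifi211: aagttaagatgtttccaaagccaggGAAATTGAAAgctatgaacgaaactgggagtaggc
Ifi205: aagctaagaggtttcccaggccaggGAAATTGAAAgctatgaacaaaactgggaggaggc
Ifi213: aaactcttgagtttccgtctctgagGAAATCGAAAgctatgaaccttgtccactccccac
Ifi206: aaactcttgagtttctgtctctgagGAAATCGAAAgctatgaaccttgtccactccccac
Ifi214: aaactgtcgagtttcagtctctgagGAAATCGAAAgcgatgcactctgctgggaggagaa
Ifi208: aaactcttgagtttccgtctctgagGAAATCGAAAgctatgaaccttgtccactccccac
The stretches of Ifi211 and Ifi205 shared 54 of 60 bases. Those of Ifi213 and Ifi208 were identical over 60 bases, although Ifi208 did not pass, and Ifi211 shared 30 of 60 bases with Ifi213.

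In the aminoacyl-tRNA synthetases, capitals mark the ATF4-type element, searched as TGATG, any base, AA, on both strands. Both genes were lower with hypoxanthine: Tars (chr15:11399666-11399698, minus strand), the threonine enzyme, and Gars (chr6:55037946-55038000, plus strand), the glycine enzyme.
Tars: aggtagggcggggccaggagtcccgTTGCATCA
Gars: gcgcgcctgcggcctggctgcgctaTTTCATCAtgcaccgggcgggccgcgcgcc

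In the last set, capitals mark the AP-1 site, searched as TGANTCA on both strands. AP-1 is the dimer of Fos and Jun proteins that T cell activation induces. Gzmb (chr14:56262361-56262417, minus strand) encodes granzyme B, Upp1 (chr11:9117938-9117994, plus strand) uridine phosphorylase, Tnfrsf8 (chr4:145315265-145315321, minus strand) the receptor CD30, Osgin1 (chr8:119437025-119437081, plus strand) an oxidative stress inducible protein, and Plaur (chr7:24462389-24462445, plus strand) the urokinase receptor. The genes of these 3 sets were chosen for display after their values were seen.
Gzmb: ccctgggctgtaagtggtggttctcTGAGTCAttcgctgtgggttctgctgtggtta
Upp1: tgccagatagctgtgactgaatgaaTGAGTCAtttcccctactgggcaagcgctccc
Tnfrsf8: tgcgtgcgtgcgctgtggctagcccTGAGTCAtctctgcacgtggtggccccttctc
Osgin1: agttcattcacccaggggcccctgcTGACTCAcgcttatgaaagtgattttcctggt
Plaur: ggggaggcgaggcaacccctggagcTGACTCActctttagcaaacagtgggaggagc

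Of the 20618 genes, 4382 (21.3%) passed an adjusted p of 0.05 in limma on log2(FPKM + 1), 2404 (11.7%) higher and 1978 (9.59%) lower with hypoxanthine. FPKM counts fragments relative to transcript length and sequencing depth, and a difference on this scale understates the change of genes with low FPKM. Recovered reads per library ran from 34686161 to 44647598, and 16574 to 17092 genes were above 0. Among the 9974 genes that averaged 1 FPKM or more over the 6 libraries, 1713 (17.2%) were higher and 1573 (15.8%) lower, and the 3 values of the 2 media did not overlap for 4927 of them (49.4%). In bulk RNA, fewer cells of a type and less RNA per cell cannot be told apart. Most of these differences were small: 889 of the higher and 1012 of the lower genes changed by less than 0.5 on the log2 scale, and 176 and 90 by at least 1. The media lay apart on a first principal component with 74.1% of the variance, while the second, with 18.1%, ran from replicate 2 to replicate 1 within both. The mitochondrially encoded share of FPKM was 4.47% to 6.50% with inosine alone and 4.05% to 5.84% with hypoxanthine, highest in replicate 2 of both media. Without hypoxanthine replicate 3 the counts were 1542 higher and 1215 lower, and without hypoxanthine replicate 1 the lower genes were 1305. Lists of related genes are described below by how many measured members passed. These counts are to be read against the 11.7% and 9.59% of all genes and the 17.2% and 15.8% of genes of at least 1 FPKM. The second pair is the nearer one for most lists, since most of their members averaged 1 FPKM or more. The median log2 difference of each list is also given, which was 0.00 over all genes and 0.02 over those of at least 1 FPKM. Counts of 3 or fewer in the lists described here moved by up to 2 genes when a library was left out, and such moves are not repeated at each list. The media did not overlap for 2400 of the 2404 higher and 1975 of the 1978 lower genes, so a lack of overlap adds little to a call. It was also a condition for naming the largest rises and falls. Values of a medium are given in the order of replicates 1, 2 and 3.

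**Figure D1:**
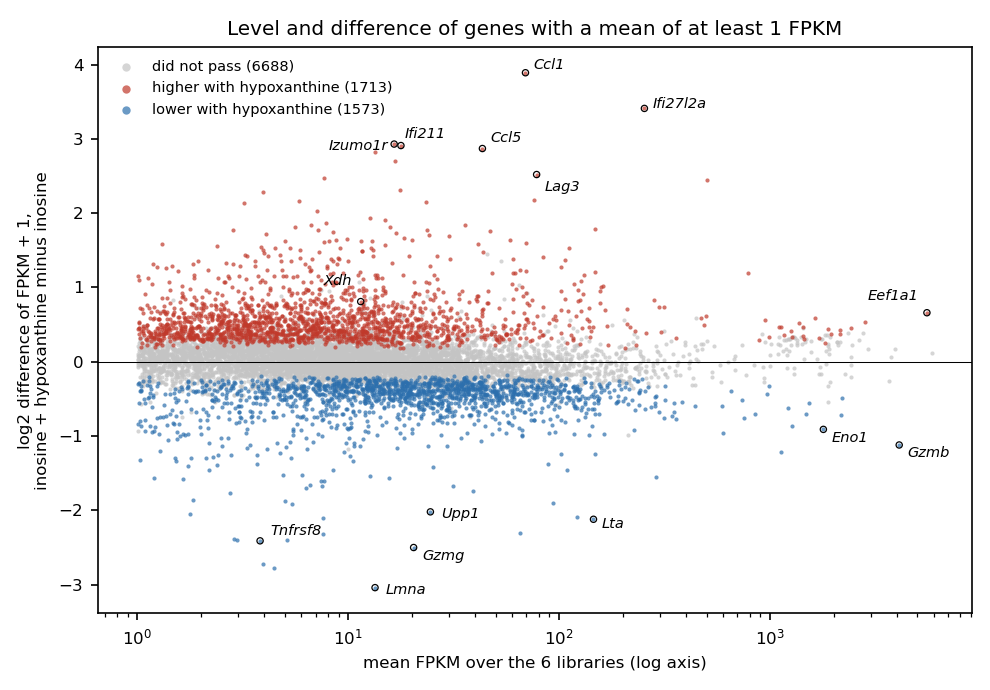
Each point is a gene that averaged 1 FPKM or more: the x axis is its mean FPKM over the 6 libraries (log axis) and the y axis its log2 difference, hypoxanthine minus inosine alone. Red points (1713) were higher and blue points (1573) lower, grey ones did not pass, and the lower genes gather toward the right, where levels are high.

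Of 12 measured transporters of nucleosides and bases, 5 rose with hypoxanthine, none fell and 7 did not pass. The median was 0.09, and 3 rose without hypoxanthine replicate 1. Slc29a1 encodes ENT1, the main equilibrative carrier of purine and pyrimidine nucleosides across the plasma membrane. With inosine alone Slc29a1 was at 32.1, 36.5 and 36.7 FPKM, and with hypoxanthine at 50.9, 48.3 and 49.6 FPKM. Each library with hypoxanthine was above every library without it, log2 difference 0.49 ± 0.07, adjusted p = 0.0015. Slc28a2 encodes a sodium-driven transporter that prefers purine nucleosides such as inosine. The level of Slc28a2 was 7.77, 10.2 and 7.69 FPKM with inosine alone and 13.4, 15.5 and 15.9 FPKM with hypoxanthine. The 2 media did not overlap, and hypoxanthine was the higher, log2 difference 0.75 ± 0.13, adjusted p = 0.0045. Slc29a3, which moves nucleosides across lysosomal and mitochondrial membranes, was at 2.56, 2.08 and 2.08 FPKM with inosine alone and 4.21, 3.99 and 4.77 with hypoxanthine, without overlap (log2 difference 0.72 ± 0.09, adjusted p = 0.00088). Slc43a3, which carries free purine bases including hypoxanthine, did not pass: its levels were 29.1, 33.1 and 30.1 FPKM and 29.9, 30.8 and 31.1 FPKM and overlapped.

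The enzymes that take inosine and hypoxanthine apart and back moved in both directions. Of 32 measured genes of purine breakdown and salvage, 6 rose and 9 fell, and the median was -0.13. Without the 2 libraries of the highest mitochondrial share, 3 of the list were higher. Pnp was measured at 23.4, 29.7 and 27.1 FPKM in the inosine libraries and at 18.3, 20.4 and 18.02 FPKM in the hypoxanthine libraries. Every inosine library was higher than every hypoxanthine library, and Pnp fell by 0.47 ± 0.09 (SE) on the log2 scale, adjusted p = 0.0066. The gene Pnp2 lies beside Pnp (chr14:50956141-50964751) and is not described here. Reads may have been shared between Pnp and Pnp2 in the counting. Xdh stood at 8.26, 7.87 and 7.95 FPKM with inosine alone and at 15.7, 13.1 and 15.8 FPKM with hypoxanthine. No inosine library reached the lowest hypoxanthine library, and Xdh rose by 0.81 ± 0.13, adjusted p = 0.0033. Hprt did not pass, at 134, 152 and 128 FPKM with inosine alone and 109, 129 and 110 FPKM with hypoxanthine, so that hypoxanthine replicate 2 lay among the inosine libraries (log2 difference -0.25 ± 0.09, adjusted p = 0.1). It passed as lower when that library was left out, with an adjusted p of 0.044. Aprt, the salvage enzyme for adenine, fell from 169.5, 205 and 178 FPKM to 109, 120.5 and 108 FPKM with no overlap (log2 difference -0.70 ± 0.09, adjusted p = 0.00099). Itpa, which removes inosine triphosphate from the nucleotide pool, fell from 48.7, 60 and 58.3 FPKM to 34.1, 34.7 and 32.3 FPKM, also with no overlap (log2 difference -0.70 ± 0.08, adjusted p = 0.00075). Mtap, which returns adenine from methylthioadenosine, fell by 0.48 ± 0.06, adjusted p = 0.00077. The nucleoside diphosphate kinase Nme1 fell from 225, 252 and 242 FPKM to 166, 185 and 163 FPKM (log2 difference -0.49 ± 0.09, adjusted p = 0.0067). Against these, Nt5e and Dguok rose. Nt5e is CD73, the surface enzyme that makes adenosine and inosine from their monophosphates, and its levels were 1.44, 0.919 and 1.07 FPKM with inosine alone and 2.63, 2.89 and 3.16 FPKM with hypoxanthine (log2 difference 0.87 ± 0.10, adjusted p = 0.00047). Dguok, the mitochondrial deoxyguanosine kinase, was at 8.47, 9.72 and 8.59 FPKM and 13.8, 12.8 and 14.9 FPKM, again with no overlap (log2 difference 0.58 ± 0.08, adjusted p = 0.0015).

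De novo synthesis, which builds purines on PRPP without a preformed base, had 4 of 11 genes lower and none higher, with a median of -0.22. That count was 1 without inosine replicate 3, hypoxanthine replicate 2 or hypoxanthine replicate 3, and 2 without hypoxanthine replicate 1. The 1 gene of the list that passed in every fit was Atic, the enzyme of the last steps to inosine monophosphate. With inosine alone Atic was at 81.2, 78.5 and 86.1 FPKM, and with hypoxanthine at 62.3, 57.7 and 60.2 FPKM. There was no overlap, with hypoxanthine the lower, and it fell by 0.44 ± 0.06, adjusted p = 0.0018. The pentose phosphate pathway and PRPP synthesis had 7 of 17 genes lower and 1 higher, with a median of -0.28, and 4 were lower without hypoxanthine replicate 3. Pgd, which makes NADPH and ribulose 5-phosphate, was at 99.3, 85.7 and 98.7 FPKM with inosine alone and 62.5, 55.9 and 58.6 FPKM with hypoxanthine. The 2 media did not overlap (log2 difference -0.67 ± 0.09, adjusted p = 0.0012). Rpia, which makes ribose 5-phosphate, fell from 40.4, 40.2 and 37.99 FPKM to 29.6, 25.96 and 28.1 FPKM (log2 difference -0.49 ± 0.07, adjusted p = 0.0013), and G6pdx, the entry enzyme, from 34.1, 35.1 and 35.7 FPKM to 27.2, 27.1 and 25.7 FPKM (log2 difference -0.38 ± 0.07, adjusted p = 0.007). Pgm2, which turns ribose 1-phosphate from Pnp into ribose 5-phosphate, fell by 0.34 ± 0.07, adjusted p = 0.0084. In pyrimidine and deoxynucleotide synthesis, 7 of 21 genes fell and 1 rose, with a median of -0.23. Uridine phosphorylase Upp1, which releases ribose 1-phosphate from uridine as Pnp does from inosine, had the largest fall of the list. The level of Upp1 was 27.4, 54.7 and 38.6 FPKM with inosine alone and 8.41, 9.52 and 8.53 FPKM with hypoxanthine. No hypoxanthine library reached the lowest inosine library, and the inosine libraries differed among themselves by more than the hypoxanthine libraries did (log2 difference -2.02 ± 0.23, adjusted p = 0.00057). Dhodh, the mitochondrial step of pyrimidine synthesis, fell by 0.58 ± 0.08, adjusted p = 0.0011, and Ctps, which makes CTP, by 0.34 ± 0.06, adjusted p = 0.0057.

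**Figure D2:**
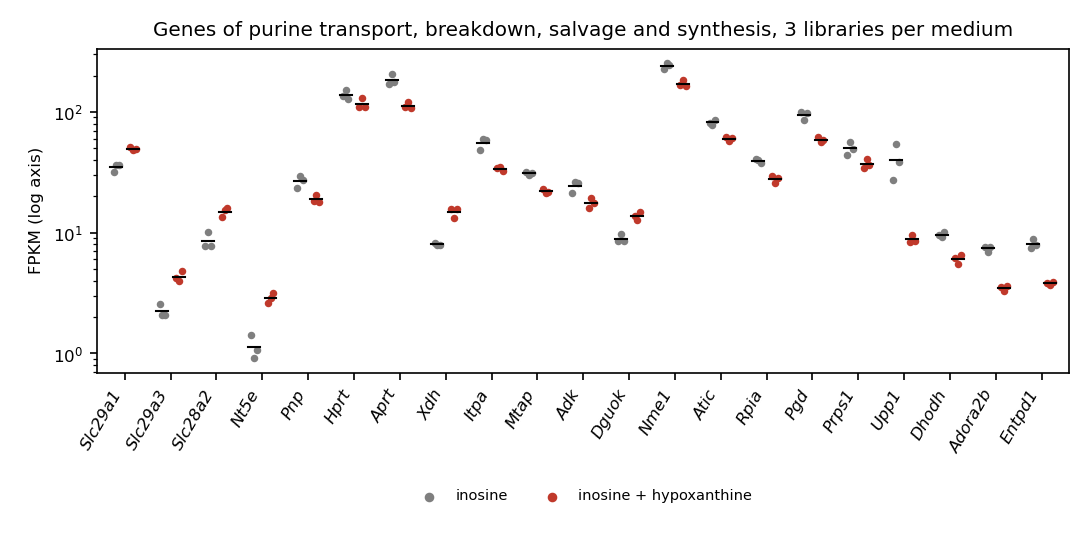
FPKM (log axis) of 21 genes, most of which move, break down or make purines and their ribose. Upp1 and Dhodh act on pyrimidines, and Adora2b is an adenosine receptor. There is 1 point per library, grey for inosine alone and red for inosine with hypoxanthine, and a bar at the mean of 3 libraries. Slc29a1, Slc29a3, Slc28a2, Nt5e, Xdh and Dguok sit higher in red, Hprt overlaps, and the others sit lower, Upp1 furthest.

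Receptors and enzymes of extracellular adenosine changed apart from each other. Adenosine, from which inosine is formed, acts on T cells through G protein coupled receptors that raise or lower cyclic AMP. Adora2b was measured at 7.65, 6.97 and 7.61 FPKM in the inosine libraries and at 3.54, 3.297 and 3.64 FPKM in the hypoxanthine libraries. All 3 hypoxanthine libraries lay below all 3 inosine libraries, and this low-affinity receptor fell by 0.90 ± 0.06, adjusted p = 6e-05. Adora3, a receptor that inosine also binds, was listed at 0.691, 0.87 and 0.995 FPKM with inosine alone and 0.196, 0.299 and 0.199 FPKM with hypoxanthine (log2 difference -0.59 ± 0.08, adjusted p = 0.0012). Entpd1 is CD39, which removes phosphates from extracellular ATP upstream of Nt5e. It fell from 7.48, 8.82 and 7.96 FPKM to 3.82, 3.68 and 3.93 FPKM with no overlap (log2 difference -0.92 ± 0.08, adjusted p = 0.00018), opposite to Nt5e. Adcy6, which makes cyclic AMP, and Pde4d, which degrades it, rose (log2 difference 0.73 ± 0.08, adjusted p = 0.00045 and log2 difference 0.53 ± 0.08, adjusted p = 0.0022). Over the whole list of 23 genes, 7 rose and 4 fell, with a median of 0.06. The number that rose was 3 without inosine replicate 3 or hypoxanthine replicate 3 and without the 2 libraries of the highest mitochondrial share, and 4 without hypoxanthine replicate 2.

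The enzymes that charge transfer RNAs with amino acids were lower with hypoxanthine nearly throughout the cytosol. Of 23 cytosolic aminoacyl-tRNA synthetases and their scaffold proteins, 18 fell and none rose, with a median of -0.50, and between 13 and 18 were lower in fits that left out 1 library. Nars stood at 136, 116 and 127 FPKM with inosine alone and at 65.9, 65.7 and 64.8 FPKM with hypoxanthine. Every inosine library was higher than every hypoxanthine library, and Nars, the asparagine enzyme, fell by 0.94 ± 0.09, adjusted p = 0.00028. Tars, whose promoter is printed above, was at 64.9, 65.2 and 69.6 FPKM with inosine alone and 35.4, 37.8 and 37.4 FPKM with hypoxanthine, with no overlap (log2 difference -0.83 ± 0.06, adjusted p = 7.5e-05). Hars, the histidine enzyme, fell from 74.8, 76.5 and 77.6 FPKM to 45.99, 46.1 and 43.9 FPKM (log2 difference -0.74 ± 0.06, adjusted p = 0.00013). Gars, the other promoter printed above, fell by 0.64 ± 0.11, adjusted p = 0.0034. The ATF4-type element was found in 5 of the 15 synthetase promoters in the table (33.3%), those of Aars, Gars, Iars, Tars and Yars, against 4.06% of all 27025 promoters and 2.14% of the 8089 promoters of genes that averaged 1 FPKM or more. Other motifs also exceeded their share among those 8089. The E-box, CACGTG, was in 26.7% against 10.8%, and the NF-Y box, CCAAT, in 60% against 40.2%. The STAT site was in 20% against 6.96%, and the ETS site in 33.3% against 21.6%. The sterol element was in none. The mitochondrial synthetases were mostly not among the genes that passed: 3 of 17 fell and 1 rose, with a median of -0.07, and Yars2 was the one that passed in every fit, at 16.5, 15.4 and 17.8 FPKM with inosine alone and 11.6, 11.8 and 10.3 FPKM with hypoxanthine (log2 difference -0.52 ± 0.08, adjusted p = 0.0018).

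The proteins of the 2 ribosomes of the cell differed. Of 78 mitochondrial ribosomal proteins, which translate the mitochondrial genome, 40 fell and 1 rose, with a median of -0.31, and 28 to 39 were lower in fits that left out 1 library. With inosine alone Mrps18b was at 44.7, 57.1 and 52.7 FPKM, and with hypoxanthine at 30.5, 31.6 and 29.9 FPKM. There was no overlap, with hypoxanthine the lower, and it fell by 0.72 ± 0.09, adjusted p = 0.00088. Mrps5 fell from 48.6, 50.4 and 55.6 FPKM to 33.1, 36.1 and 32.04 FPKM (log2 difference -0.60 ± 0.07, adjusted p = 0.00084), and Mrpl37 from 33.7, 31.5 and 33.1 FPKM to 23.9, 20.8 and 22.3 FPKM (log2 difference -0.53 ± 0.07, adjusted p = 0.0011). Of 81 cytosolic ribosomal proteins, 18 rose and 1 fell, with a median of 0.29, but this count hung on single libraries. It was 35 without inosine replicate 2, 11 without glucose replicate 3, 8 without hypoxanthine replicate 1, 4 without inosine replicate 1, 3 without hypoxanthine replicate 2, 2 without hypoxanthine replicate 3 and 1 without inosine replicate 3. It was 3 after scaling the libraries by their median of ratios, 5 with only the 6 libraries of these media and 32 without the 2 libraries of the highest mitochondrial share. Rpl17 was the most significant of them and passed in each of these fits, at 1137, 1526 and 1253 FPKM with inosine alone and 1802, 2205 and 1874 FPKM with hypoxanthine, with no overlap (log2 difference 0.59 ± 0.13, adjusted p = 0.011).

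Other parts of the machinery that makes, moves and destroys proteins are to be read against the 15.8% lower among genes of at least 1 FPKM, since all members of the next 5 lists were at that level, and against 28.3% among the most abundant of 5 equal groups of those genes. Of 50 translation initiation and elongation factors, 17 fell and 4 rose, with a median of -0.20. Eif4a1, the helicase that opens messenger RNA for the ribosome, was at 672, 722 and 746 FPKM with inosine alone and 455, 502 and 464 FPKM with hypoxanthine, without overlap (log2 difference -0.59 ± 0.08, adjusted p = 0.0013). Eif2b1, a subunit of the exchange factor that the integrated stress response inhibits, fell by 0.73 ± 0.10, adjusted p = 0.0011. The opposite held for Eef1a1, which brings charged transfer RNA to the ribosome. The level of Eef1a1 was 3906, 4710 and 4278 FPKM with inosine alone and 6900, 6845 and 6629 FPKM with hypoxanthine. All 3 hypoxanthine libraries lay above all 3 inosine libraries, and the rise of 0.66 ± 0.09 (adjusted p = 0.0011) was the largest gain of FPKM of any gene. The count of translation factors that rose was 2 without glucose replicate 1, 2 or 3 and 1 without inosine replicate 2 or 3 or hypoxanthine replicate 1 or 3. Of 46 proteasome genes, 21 fell and 1 rose, with a median of -0.29. The count that fell was 11 without inosine replicate 3 and 12 without hypoxanthine replicate 1 or 3. Psmd2, a scaffold subunit of the regulatory particle, fell from 147, 149.9 and 146 FPKM to 107, 98.6 and 106 FPKM (log2 difference -0.50 ± 0.06, adjusted p = 0.00081). The 1 that rose, Psme2, is an interferon-inducible activator of the proteasome and was at 195, 292 and 222 FPKM and 377, 418 and 376 FPKM (log2 difference 0.74 ± 0.14, adjusted p = 0.006).

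Of 33 RNA polymerase subunits, 14 fell and none rose, with a median of -0.25, and 7 to 9 fell without inosine replicate 3 or any 1 hypoxanthine library. Polr2h, a subunit common to the nuclear polymerases, was at 45.4, 48.8 and 47.98 FPKM with inosine alone and 29.3, 33.9 and 27.98 FPKM with hypoxanthine, without overlap (log2 difference -0.63 ± 0.10, adjusted p = 0.0029). Of 56 nuclear pore proteins and karyopherins, 23 fell and none rose, with a median of -0.23, and 12 to 14 fell without the same libraries. Ran, the small GTPase that gives nuclear transport its direction, fell from 344, 322 and 336 FPKM to 251, 246 and 233 FPKM (log2 difference -0.46 ± 0.08, adjusted p = 0.0033), and the import receptor Ipo5 from 92.7, 102 and 102 FPKM to 66.98, 71.9 and 69.7 FPKM (log2 difference -0.51 ± 0.06, adjusted p = 0.00089). Of 58 genes of mitochondrial import and SLC25 carriers, 22 fell and 5 rose, with a median of -0.20, and 14 fell without hypoxanthine replicate 3. Those that rose were 2 without inosine replicate 3, hypoxanthine replicate 1 or hypoxanthine replicate 3. Hspd1 was measured at 397, 392.4 and 391 FPKM in the inosine libraries and at 234, 232 and 229 FPKM in the hypoxanthine libraries. No hypoxanthine library reached the lowest inosine library, and Hspd1, the chaperonin that folds imported proteins, fell by 0.76 ± 0.06, adjusted p = 0.00011. Slc25a42, a carrier of coenzyme A, went the other way, from 1.36, 1.21 and 1.27 FPKM to 2.59, 2.502 and 2.66 FPKM (log2 difference 0.65 ± 0.06, adjusted p = 0.00013).

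**Figure D3:**
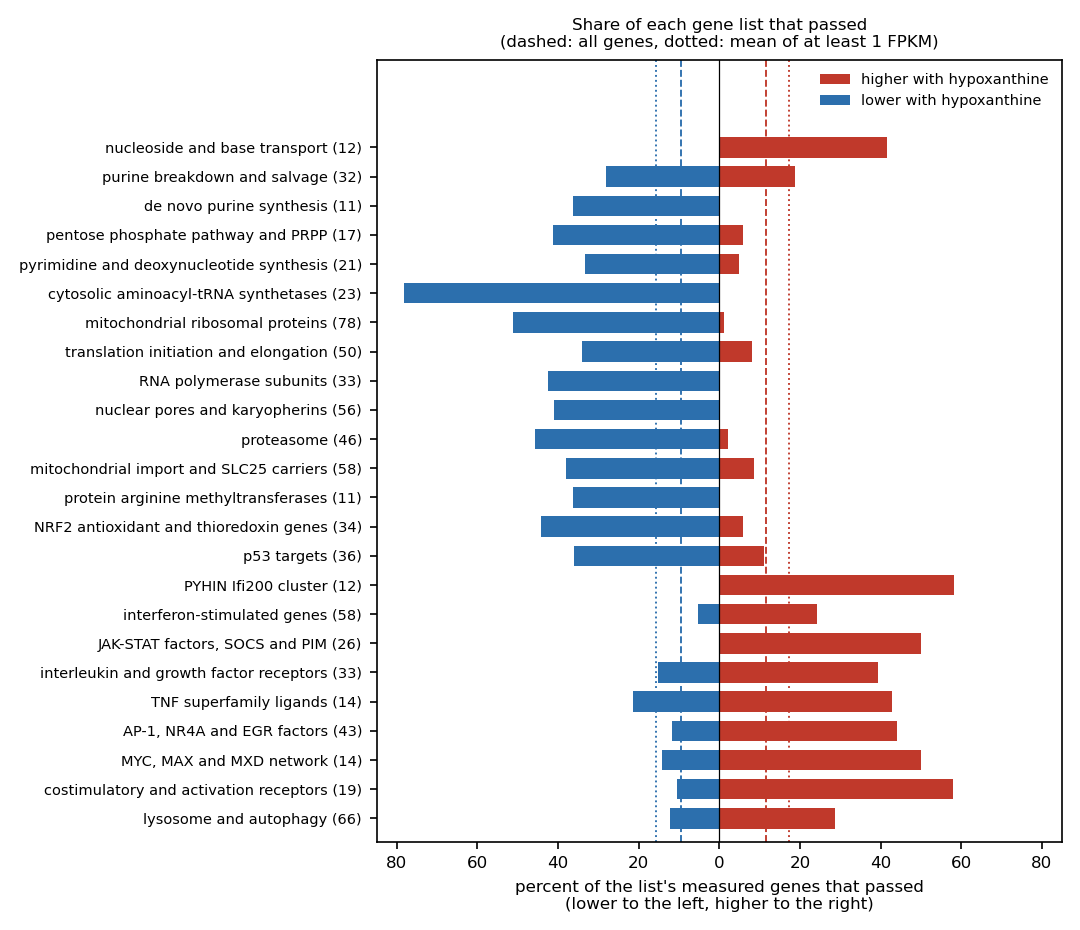
Bars give, for 24 gene lists, the percent of measured members that were higher (red, to the right) or lower (blue, to the left) with hypoxanthine, with the number of members in brackets. Dashed lines mark the 11.7% and 9.59% of all 20618 genes and dotted lines the 17.2% and 15.8% of genes that averaged 1 FPKM or more; the synthetases reach furthest left, with 18 of 23, and the PYHIN genes and costimulatory receptors furthest right.

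Protein arginine methyltransferases are the family of CARM1, named in the study's title. These enzymes add methyl groups to arginine in histones, splicing factors and ribosomal proteins. Carm1 itself did not pass, at 24.5, 16.3 and 23.8 FPKM with inosine alone and 22.6, 16.8 and 22.2 FPKM with hypoxanthine, and its values overlapped (log2 difference -0.05 ± 0.16, adjusted p = 0.87). Of the 11 measured members and cofactors, 4 fell and none rose, with a median of -0.13. Prmt5 stood at 103, 109.9 and 106 FPKM with inosine alone and at 60.5, 59.8 and 62.2 FPKM with hypoxanthine. All 3 hypoxanthine libraries lay below all 3 inosine libraries, and Prmt5, the main enzyme of symmetric dimethylation, fell by 0.80 ± 0.06, adjusted p = 6.7e-05. Its obligate partner Wdr77 fell from 26.7, 25.2 and 25.7 FPKM to 18.9, 15.6 and 17.99 FPKM (log2 difference -0.54 ± 0.08, adjusted p = 0.0018). Prmt1, the main enzyme of asymmetric dimethylation, was at 239, 243 and 232 FPKM and 165, 168 and 161 FPKM, with no overlap (log2 difference -0.53 ± 0.07, adjusted p = 0.0011). Prmt7, which adds a single methyl group, fell by 0.56 ± 0.08, adjusted p = 0.0017.

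Of 12 measured PYHIN genes, the interferon-inducible family whose promoters are printed above, 7 rose and none fell, with a median of 1.11, and 6 or 7 rose in fits that left out 1 library. With inosine alone Ifi211 was at 3.06, 2.79 and 3.32 FPKM, and with hypoxanthine at 27.8, 33.2 and 28.9 FPKM. Each library with hypoxanthine was above every library without it, and it rose by 2.93 ± 0.09, adjusted p = 3.9e-06. Ifi205 was at 0.513, 0.571 and 0.582 FPKM with inosine alone and 5.59, 6.57 and 5.504 FPKM with hypoxanthine (log2 difference 2.14 ± 0.08, adjusted p = 5.6e-06). Mndal was at 14.1, 16.7 and 14.7 FPKM and 56.3, 53.7 and 59.7 FPKM (log2 difference 1.84 ± 0.09, adjusted p = 1.3e-05). All of these were without overlap. Ifi213 was at 0.506, 2.59 and 1.31 FPKM and 4.08, 5.03 and 4.94 FPKM (log2 difference 1.29 ± 0.37, adjusted p = 0.038), and Ifi208, with the same 60 bases around its element, at 1.28, 3.799 and 2.44 FPKM and 2.85, 3.61 and 3.44 FPKM (log2 difference 0.36 ± 0.32, adjusted p = 0.5). The interferon response element was found in 8 of the 11 PYHIN promoters in the table (72.7%), in 26 of 45 promoters of the wider interferon list (57.8%) and in 3.49% of all promoters. Near-identical copies lie side by side in this family, so the authors' counting may have split or dropped their reads.

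Of the 58 genes of the wider list of interferon-stimulated genes, 14 rose and 3 fell, with a median of 0.44. The count that rose ran from 6 to 21 in fits that left out 1 library: it was 6 without hypoxanthine replicate 3, 8 without inosine replicate 3 and 21 without glucose replicate 1. The 3 that fell were 5 without inosine replicate 1 and 1 without hypoxanthine replicate 1. The level of Ifi27l2a was 29.9, 59.9 and 42.6 FPKM with inosine alone and 418, 536 and 435 FPKM with hypoxanthine. The 2 media did not overlap, and hypoxanthine was the higher, and this interferon-inducible gene rose by 3.41 ± 0.31, adjusted p = 0.00018. The span of Ifi27 (chr12:103434189-103440245), which also rose, lies within that of Ifi27l2a (chr12:103433873-103443680). Reads may have been shared between Ifi27 and Ifi27l2a in the counting. Stat2, a factor of the interferon signal, was at 4.16, 5.47 and 4.28 FPKM and 9.67, 9.84 and 10.8 FPKM, with no overlap (log2 difference 0.98 ± 0.15, adjusted p = 0.0021). The interferon receptor chain Ifnar1 rose from 9.41, 8.56 and 8.5 FPKM to 14.6, 13.7 and 15.3 FPKM (log2 difference 0.66 ± 0.07, adjusted p = 0.00029). The antiviral membrane protein Ifitm2 went the other way, from 278, 309 and 297 FPKM to 237, 230.4 and 232 FPKM (log2 difference -0.34 ± 0.07, adjusted p = 0.0082). Inosine replicate 1 had the lowest and replicate 2 the highest level for Ifi27l2a, a wider spread than among the hypoxanthine libraries on the log scale. In antigen presentation, 8 of 31 genes rose and 3 fell, with a median of 0.16, and 5 fell without inosine replicate 1. H2-T23, the class I molecule Qa-1, rose from 101, 107 and 109.7 FPKM to 229.5, 199.6 and 219 FPKM (log2 difference 1.02 ± 0.07, adjusted p = 6.7e-05), while the peptide-loading chaperones Calr and Pdia3 fell by 0.59 ± 0.09 and by 0.53 ± 0.06 (adjusted p = 0.0019 and 0.00046).

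Ligands and receptors of cell communication moved in both directions. Among 14 TNF superfamily ligands, 6 rose and 3 fell, with a median of 0.13. Tnfsf8 was measured at 13.2, 15.04 and 12.7 FPKM in the inosine libraries and at 45.2, 44.9 and 48.6 FPKM in the hypoxanthine libraries. No inosine library reached the lowest hypoxanthine library, and Tnfsf8, the ligand of CD30, rose by 1.69 ± 0.09, adjusted p = 1.9e-05. Its receptor Tnfrsf8 did the opposite, at 8.01, 6.22 and 7.14 FPKM with inosine alone and 0.565, 0.501 and 0.488 FPKM with hypoxanthine (log2 difference -2.41 ± 0.08, adjusted p = 4.4e-06). The death ligands Tnfsf10 (TRAIL) and Fasl rose from 3.06, 3.18 and 2.87 to 7.75, 7.78 and 8.16 FPKM and from 11.04, 13.1 and 12.7 to 20.4, 22.8 and 20.6 FPKM. Both were without overlap (log2 difference 1.14 ± 0.08, adjusted p = 6.7e-05 and log2 difference 0.74 ± 0.08, adjusted p = 0.00038). Lymphotoxin alpha (Lta) fell. Lta stood at 177, 298 and 239.7 FPKM with inosine alone and at 53.7, 52.8 and 51.6 FPKM with hypoxanthine. Every inosine library was higher than every hypoxanthine library (log2 difference -2.12 ± 0.18, adjusted p = 0.00014). Tnf fell by 0.56 ± 0.12, adjusted p = 0.0092. Among 20 TNF receptors, 5 rose and 6 fell, with a median of 0.00. Cd27, the receptor of the costimulatory ligand CD70, had the most significant rise, from 21.9, 22.5 and 22.9 FPKM to 68.3, 60.2 and 64.7 FPKM (log2 difference 1.48 ± 0.06, adjusted p = 8.1e-06).

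Among 33 interleukin and growth factor receptors, 13 rose and 5 fell, with a median of 0.12, and 11 to 14 rose in fits that left out 1 library. The chains of the IL-2 receptor parted. With inosine alone Il2rb was at 375, 276 and 344 FPKM, and with hypoxanthine at 227, 197 and 222 FPKM. There was no overlap, with hypoxanthine the lower, and the beta chain fell by 0.61 ± 0.11, adjusted p = 0.0053. The common gamma chain Il2rg was at 165, 209 and 173 FPKM with inosine alone and 248, 258 and 250 FPKM with hypoxanthine (log2 difference 0.47 ± 0.09, adjusted p = 0.0072). Il2ra, the alpha chain, did not pass, at 147, 119.9 and 131 FPKM and 136, 124 and 135 FPKM, and overlapped. Il21r and Il12rb2, which receive IL-21 and IL-12, rose from 42.9, 38.9 and 43.99 to 90.3, 74.3 and 86.2 FPKM and from 51.1, 42.9 and 46.7 to 88.7, 82.9 and 92.1 FPKM (log2 difference 0.98 ± 0.09, adjusted p = 0.00022 and log2 difference 0.89 ± 0.08, adjusted p = 0.00017). Acvrl1, a receptor of bone morphogenetic proteins, fell most. The level of Acvrl1 was 10.5, 6.66 and 8.51 FPKM with inosine alone and 0.397, 0.368 and 0.367 FPKM with hypoxanthine. No hypoxanthine library reached the lowest inosine library (log2 difference -2.77 ± 0.14, adjusted p = 1.3e-05). Below the receptors, 13 of 26 JAK-STAT factors, SOCS and PIM genes rose and none fell, with a median of 0.39, and 8 rose without hypoxanthine replicate 1 or 3. Stat4, the factor that IL-12 activates, rose from 37.5, 38.2 and 41.1 FPKM to 74.1, 88.97 and 80.3 FPKM, and Jak2, its kinase, from 10.3, 7.64 and 8.16 FPKM to 25.3, 20.6 and 24.2 FPKM (log2 difference 1.04 ± 0.10, adjusted p = 0.00024 and log2 difference 1.33 ± 0.12, adjusted p = 0.00015).

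Chemokine and homing receptors and secreted factors also went both ways. Of 27 chemokine and homing receptors, 8 rose and 5 fell, with a median of 0.00. Ccr7 was measured at 29.8, 22.04 and 29.5 FPKM in the inosine libraries and at 125, 124 and 125 FPKM in the hypoxanthine libraries. All 3 hypoxanthine libraries lay above all 3 inosine libraries, and Ccr7, which guides T cells to lymph nodes, rose by 2.18 ± 0.15, adjusted p = 5.8e-05. Ccr2, which guides T cells to inflamed tissue, fell from 17.03, 17.7 and 13.6 FPKM to 5.93, 7.098 and 7.19 FPKM (log2 difference -1.14 ± 0.12, adjusted p = 0.00035). Ltb4r1, the receptor of leukotriene B4, fell by 1.61 ± 0.10, adjusted p = 3.9e-05. Of 16 chemokines, 3 rose and none fell, with a median of 0.06, and 1 rose without the 2 libraries of the highest mitochondrial share. Ccl5, a chemokine of cytotoxic T cells, rose. Ccl5 stood at 9.601, 11.1 and 8.37 FPKM with inosine alone and at 81.8, 68.9 and 79.8 FPKM with hypoxanthine. Each library with hypoxanthine was above every library without it (log2 difference 2.87 ± 0.18, adjusted p = 3.5e-05). Of 29 secreted cytokines, 5 rose and 7 fell, with a median of -0.01. Over the 16 cytokines that averaged 1 FPKM or more, the median was -0.36. The number that rose was 3 without glucose replicate 3, inosine replicate 2 or 3, or any 1 hypoxanthine library. Csf1, the growth factor of macrophages, was at 1.01, 2.19 and 1.83 FPKM and 15.04, 11.3 and 14.6 FPKM (log2 difference 2.47 ± 0.26, adjusted p = 0.00035). Il24 fell from 3.14, 7.79 and 5.65 FPKM to 0.291, 0.181 and 0.128 FPKM (log2 difference -2.38 ± 0.28, adjusted p = 0.0007), and Flt3l, a growth factor of dendritic cells, from 30.6, 37.3 and 32.5 FPKM to 13.3, 15.5 and 14.8 FPKM (log2 difference -1.14 ± 0.14, adjusted p = 0.00088).

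Transcription factors were higher more often than other genes, at every level of expression. By the families in the authors' annotation, 743 genes that averaged 1 FPKM or more were transcription factors, of which 207 (27.9%) rose and 37 (4.98%) fell, with a median of 0.17, against 16.3% and 16.6% of 9231 genes in no family, with a median of 0.01. The difference between the 2 classes was not tested. Genes at low levels were higher more often in general: from the lowest to the highest of 5 equal groups by mean FPKM, the share that rose went from 24.1% to 11.2% and the share that fell from 9.02% to 28.3%. Within those 5 groups, 29.8%, 27%, 29%, 28.4% and 19.7% of transcription factors rose, against 23.3%, 19.6%, 15.3%, 13.3% and 10.9% of other genes. Of 318 C2H2 zinc finger genes, 75 rose and 10 fell. Of 14 homeobox genes, 8 rose and none fell, and of 28 bHLH genes, 12 rose and 3 fell. The bZIP family, which holds Fos, Jun and ATF proteins, did not share this, with 7 of 35 higher and 8 lower and a median of 0.00. In the MYB family 3 of 25 (12%) were higher and 1 lower, with a median of 0.08.

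**Figure D4:**
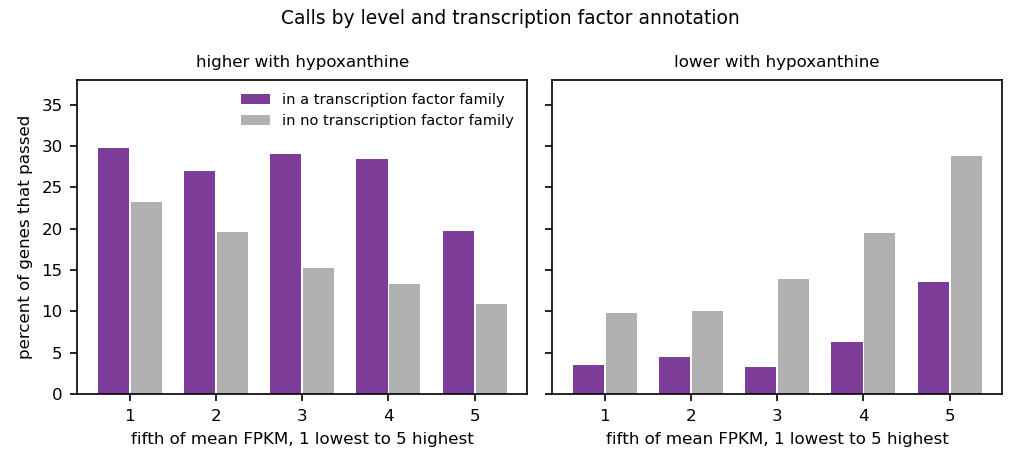
Bars give the percent of genes that were higher (left) or lower (right) with hypoxanthine in each of 5 equal groups by mean FPKM, purple for genes in a transcription factor family and grey for genes in none. Purple exceeds grey in all 5 groups on the left, from 29.8% against 23.3% to 19.7% against 10.9%, and lies below it in all 5 on the right.

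Early-response factors of T cell activation moved in both directions. Of 43 AP-1, NR4A, EGR and related factors, 19 rose and 5 fell, with a median of 0.34, and 9 fell without inosine replicate 2. With inosine alone Nr4a1 was at 6.57, 4.34 and 6.195 FPKM, and with hypoxanthine at 18.6, 15.6 and 18.8 FPKM. The 2 media did not overlap, and hypoxanthine was the higher, and Nr4a1, an orphan receptor that antigen signalling induces, rose by 1.49 ± 0.14, adjusted p = 0.00019. Rel, the NF-kappaB subunit of activated lymphocytes, was at 6.29, 4.36 and 4.77 FPKM with inosine alone and 17.7, 17.03 and 18.98 FPKM with hypoxanthine (log2 difference 1.63 ± 0.12, adjusted p = 7.6e-05). Jun and Fosl1, partners at AP-1 sites, fell from 10.7, 7.73 and 11.1 to 5.58, 4.83 and 5.53 FPKM and from 1.84, 1.21 and 1.89 to 0.551, 0.444 and 0.593 FPKM. Neither overlapped (log2 difference -0.77 ± 0.12, adjusted p = 0.003 and log2 difference -0.78 ± 0.12, adjusted p = 0.0022). Batf, a further AP-1 partner, fell by 0.58 ± 0.10, adjusted p = 0.0036, while Irf4, with which it binds DNA, rose from 33.97, 46.1 and 36.2 FPKM to 91.4, 90.2 and 92.98 FPKM (log2 difference 1.23 ± 0.14, adjusted p = 0.00058). Bach2, a repressor at AP-1 sites, rose. The level of Bach2 was 2.69, 1.86 and 2.15 FPKM with inosine alone and 8.03, 7.85 and 9.05 FPKM with hypoxanthine. No inosine library reached the lowest hypoxanthine library (log2 difference 1.53 ± 0.10, adjusted p = 4.1e-05). Of 14 genes of the MYC, MAX and MXD network, 7 rose and 2 fell, with a median of 0.40. Both the activator and its antagonists rose: Myc was at 69.5, 48.5 and 70.1 FPKM and 118, 88.5 and 108 FPKM (log2 difference 0.74 ± 0.15, adjusted p = 0.0096), and Mxd4 at 4.99, 3.05 and 3.94 FPKM and 8.99, 9.49 and 9.59 FPKM (log2 difference 1.07 ± 0.14, adjusted p = 0.00096). Mycn fell from 10.2, 8.57 and 10.2 FPKM to 4.06, 3.696 and 4.302 FPKM (log2 difference -1.08 ± 0.09, adjusted p = 0.00014). A higher level of Myc stood beside lower levels of the synthetases, RNA polymerase subunits and mitochondrial ribosomal proteins given above. It also stood beside higher levels of 18 of 81 cytosolic ribosomal proteins, a count that hung on single libraries. No list of MYC targets was examined, and a link to Myc was not tested.

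Of 20 nuclear envelope genes, 3 rose and 1, Lmna, fell, with a median of 0.09, and 5 rose without inosine replicate 1. Of 52 genes of the actin cytoskeleton and migration, 11 rose and 8 fell, with a median of -0.06. Of that list 5 rose without hypoxanthine replicate 1 or 3 and 6 without inosine replicate 3, and 13 fell without inosine replicate 2. Lmna encodes lamins A and C, the intermediate filaments under the nuclear membrane that stiffen the nucleus. Lmna was measured at 24.2, 22.3 and 27.5 FPKM in the inosine libraries and at 2.22, 1.89 and 2.25 FPKM in the hypoxanthine libraries. All 3 hypoxanthine libraries lay below all 3 inosine libraries, and it fell by 3.04 ± 0.11, adjusted p = 4.4e-06. The inner nuclear membrane proteins Sun2 and Emd, which bind lamins, rose from 22.6, 14.97 and 19.9 to 40.6, 32.1 and 39.2 FPKM and from 39.5, 38.3 and 37.7 to 50.6, 47.6 and 50.6 FPKM (log2 difference 0.94 ± 0.15, adjusted p = 0.0026 and log2 difference 0.36 ± 0.07, adjusted p = 0.006). Vim, the cytoplasmic intermediate filament, fell from 727, 819 and 821 FPKM to 418, 399 and 399 FPKM (log2 difference -0.96 ± 0.07, adjusted p = 7.6e-05), and the tubulin Tubb6 from 158, 152 and 171 FPKM to 59.4, 57.7 and 55.2 FPKM (log2 difference -1.46 ± 0.08, adjusted p = 2.2e-05). Stmn1, which takes microtubules apart, went the other way, from 101, 102 and 111 FPKM to 227, 192 and 215 FPKM (log2 difference 1.01 ± 0.09, adjusted p = 0.00022). Of 20 annexins and S100 proteins, which bind calcium and membranes, 4 rose and 5 fell, with a median of 0.02. Anxa1 stood at 11.2, 14.4 and 13.3 FPKM with inosine alone and at 2.12, 2.64 and 2.001 FPKM with hypoxanthine. Every inosine library was higher than every hypoxanthine library, and Anxa1 fell by 2.10 ± 0.11, adjusted p = 1.4e-05. Anxa2 fell from 276, 297 and 316 FPKM to 154, 162 and 150 FPKM (log2 difference -0.92 ± 0.07, adjusted p = 8.5e-05) and S100a4, a protein of motile cells, from 55.6, 69.5 and 56.4 FPKM to 14.9, 21.2 and 16.4 FPKM (log2 difference -1.74 ± 0.14, adjusted p = 8.3e-05). S100a11 was higher, at 191, 176 and 150.3 FPKM and 232, 262 and 242 FPKM (log2 difference 0.51 ± 0.10, adjusted p = 0.0069).

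Of 36 p53 targets, 13 fell and 4 rose, with a median of -0.08, and 10 to 13 fell in fits that left out 1 library. With inosine alone Cdkn1a was at 170.3, 122 and 140.2 FPKM, and with hypoxanthine at 62.1, 57.8 and 59.7 FPKM. There was no overlap, with hypoxanthine the lower, and Cdkn1a, the p21 inhibitor of cyclin-dependent kinases, fell by 1.24 ± 0.12, adjusted p = 0.00027. Bax, which permeabilises mitochondria in apoptosis, fell from 155, 164 and 158 FPKM to 110.1, 104 and 107 FPKM (log2 difference -0.57 ± 0.06, adjusted p = 0.00033). Plk2 was among the 4 that rose, at 4.75, 3.33 and 4.66 FPKM and 12.8, 9.77 and 12.01 FPKM (log2 difference 1.26 ± 0.14, adjusted p = 0.0005). Of 34 NRF2 antioxidant and thioredoxin genes, 15 fell and 2 rose, with a median of -0.28. Osgin1, whose AP-1 site is printed above together with that of Plaur, was at 4.08, 3.15 and 3.81 FPKM with inosine alone and 0.729, 0.735 and 0.6702 FPKM with hypoxanthine (log2 difference -1.45 ± 0.09, adjusted p = 3e-05). Plaur fell from 3.54, 4.19 and 3.8 FPKM to 1.49, 1.06 and 1.06 FPKM (log2 difference -1.14 ± 0.11, adjusted p = 0.00019). Srxn1, which repairs oxidised peroxiredoxins, fell by 0.74 ± 0.09, adjusted p = 0.00075, and Fth1, the heavy chain of the iron store ferritin, from 454, 397 and 443 FPKM to 288, 247 and 275 FPKM (log2 difference -0.67 ± 0.09, adjusted p = 0.0013). Of 24 G1 cyclins, CDKs and related genes, 6 rose and 3 fell, with a median of 0.04. Of that list 3 rose without inosine replicate 3, hypoxanthine replicate 1 or hypoxanthine replicate 3. The cyclins of G1 parted: Ccnd2 rose from 46.1, 40.1 and 42.7 FPKM to 83.1, 69.8 and 80.05 FPKM (log2 difference 0.84 ± 0.10, adjusted p = 0.00077) and Ccnd3 fell from 91.2, 82.7 and 96.8 FPKM to 71.4, 61.03 and 68.02 FPKM (log2 difference -0.43 ± 0.08, adjusted p = 0.0076). Of 66 lysosome and autophagy genes, 19 rose and 8 fell, with a median of 0.02, and 12 rose without hypoxanthine replicate 1 or 3. The autophagy gene Map1lc3a rose (log2 difference 0.77 ± 0.09, adjusted p = 0.00064), while the protease Ctsd fell from 200.5, 176 and 199.5 FPKM to 119, 119 and 115 FPKM (log2 difference -0.70 ± 0.11, adjusted p = 0.0021) and the proton pump subunit Atp6v1a from 24.7, 26.99 and 25.9 FPKM to 14.98, 16.2 and 15.7 FPKM (log2 difference -0.70 ± 0.07, adjusted p = 0.00027).

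Of 19 costimulatory and activation receptors, 11 rose, 2 fell and 6 did not pass, with a median of 0.41, and 8 to 11 rose in fits that left out 1 library. The level of Cd83 was 3.95, 3.62 and 3.72 FPKM with inosine alone and 13.8, 14.7 and 12.9 FPKM with hypoxanthine. All 3 hypoxanthine libraries lay above all 3 inosine libraries, and this receptor of activated lymphocytes rose by 1.64 ± 0.08, adjusted p = 1.3e-05. Slamf6 rose from 3.999, 2.89 and 3.57 FPKM to 11.9, 13.4 and 12.8 FPKM (log2 difference 1.62 ± 0.12, adjusted p = 7.5e-05), and Slamf1 from 1.81, 2.11 and 2.03 FPKM to 4.56, 5.08 and 5.14 FPKM (log2 difference 0.99 ± 0.08, adjusted p = 7.5e-05). Icos fell from 36.4, 42.4 and 36.9 FPKM to 27.8, 29.6 and 29.2 FPKM (log2 difference -0.40 ± 0.08, adjusted p = 0.0064). Inhibitory checkpoint receptors went both ways: of 19, 8 rose, 6 fell and 5 did not pass, with a median of 0.00. The inhibitory receptor Lag3 was among the 12 largest rises of genes that averaged at least 5 FPKM. The median of those that averaged 1 FPKM or more was 0.48, against 0.52 for the costimulatory receptors at that level.

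Neighbouring genes on a chromosome passed together in 41 runs of at least 4, of which 28 were higher and 13 lower, with 200 genes in all. Genes under 1 FPKM on average were skipped in forming the runs. Of the genes kept, 17.2% were higher and 15.8% lower, so some runs would arise among unrelated neighbours. How many would do so was not tested, and the count of runs is a description only. The longest (chr7:102557920-105482197) held 10 genes that rose, 8 of them Trim genes of antiviral defence, such as Trim12c at 5.27, 9.51 and 6.77 FPKM with inosine alone and 20.8, 24.4 and 22.97 FPKM with hypoxanthine (log2 difference 1.57 ± 0.23, adjusted p = 0.0019). On chromosome 14 (chr14:56082163-56262334) 7 neighbours fell together: the granzyme genes Gzmb to Gzmg and Mcpt8. Gzmb was measured at 5625, 5689 and 5515 FPKM in the inosine libraries and at 2601, 2616 and 2537 FPKM in the hypoxanthine libraries. No hypoxanthine library reached the lowest inosine library (log2 difference -1.12 ± 0.06, adjusted p = 2.2e-05). Gzmg, a far less abundant member, was at 31.6, 39.5 and 35.1 FPKM and 4.88, 5.81 and 5.62 FPKM (log2 difference -2.50 ± 0.10, adjusted p = 5.6e-06). On chromosome 9 (chr9:44969572-45269149) the T cell receptor chains Cd3g, Cd3d and Cd3e rose with Mpzl3, Jaml and Il10ra, Cd3e from 84.97, 78.7 and 84.8 FPKM to 176, 151 and 164 FPKM (log2 difference 0.97 ± 0.09, adjusted p = 0.00019). On chromosome 19 (chr19:11404717-11530403) 6 neighbours rose, 4 of them Ms4a genes of membrane proteins, Ms4a4b from 55.96, 81.5 and 62.2 FPKM to 224, 236 and 228 FPKM (log2 difference 1.79 ± 0.16, adjusted p = 0.00018). On chromosome 6 (chr6:48701583-48770851) 5 Gimap genes, which encode GTPases of lymphocyte survival, rose, Gimap3 from 92.7, 89.98 and 88.5 FPKM to 162, 156 and 166 FPKM (log2 difference 0.83 ± 0.06, adjusted p = 6e-05). On chromosome 10 (chr10:75771233-75837419) Ddt and 3 glutathione transferases rose, Gstt3 from 1.71, 1.93 and 1.76 FPKM to 7.15, 6.201 and 6.31 FPKM (log2 difference 1.43 ± 0.08, adjusted p = 1.9e-05). On chromosome 8 (chr8:94152607-94395371) the metallothioneins fell with 2 neighbours, Mt2 from 105, 171 and 114 FPKM to 45.6, 52.4 and 46.5 FPKM (log2 difference -1.38 ± 0.17, adjusted p = 0.00084). The Trim, granzyme, Ms4a and Gimap runs hold close paralogs, among which reads may have been shared in the counting, and so do the Gstt run, a run on chromosome 7 that fell with Tnfrsf22, Tnfrsf23 and Tnfrsf26, and the second longest run, 8 neighbours on chromosome X that rose, 7 of them Rps12 pseudogenes. The strand of the libraries is not stated. Calls of Trim21, Trim5 and Trim30a in the first run and of Gimap1 on chromosome 6 were lost in some fits that left out 1 library.

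The balance of the whole transcript pool moved as well. The genes that rose made up 12.7% to 13.1% of all FPKM with inosine alone and 18.4% to 19.1% with hypoxanthine, and the genes that fell 21.1% to 22.8% and 14.1% to 15.1%. Both shares follow from how the genes were chosen and are given as sizes. The largest single loss was that of Gzmb, whose mean fell by 3025 FPKM. The glycolytic enzymes came next: Eno1 fell by 1100 FPKM and Gapdh fell by 1050 FPKM. Eno1 was at 2241, 2273 and 2504 FPKM with inosine alone and 1209, 1304 and 1207 FPKM with hypoxanthine (log2 difference -0.91 ± 0.09, adjusted p = 0.00024). After Eef1a1, the largest gain that passed in every fit was that of Tmsb10, which binds actin monomers, from 2604, 2151 and 2179 FPKM to 3499, 3260 and 3314 FPKM (log2 difference 0.54 ± 0.11, adjusted p = 0.0078).

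Promoter motifs were counted in the windows from 250 bases before to 50 bases after each start, of which the table holds 27025. Among genes that averaged 1 FPKM or more, 137 that rose and 74 that fell by at least 1 on the log2 scale had a promoter there. The AP-1 site was in 20.3% of promoters of the genes that fell (15 of 74) and in 10.2% of those that rose (14 of 137), against 4.59% of 8089 expressed genes and 7.93% of all promoters. The interferon response element was in 13.1% of those that rose (18) and 5.41% of those that fell (4), against 3.23% and 3.49%. The ETS site, CCGGAAG, was rarer in both, with 6.57% (9) and 1.35% (1), against 21.6% and 9.12%. The median GC content of these promoters was 57.7% for genes that rose, 53% for genes that fell and 61% for expressed genes, so base composition moved with the motif shares, and its part was not tested. Matches of different motifs were counted separately even where they shared bases, and a match is a description of the sequence and not a bound site.

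**Figure D5:**
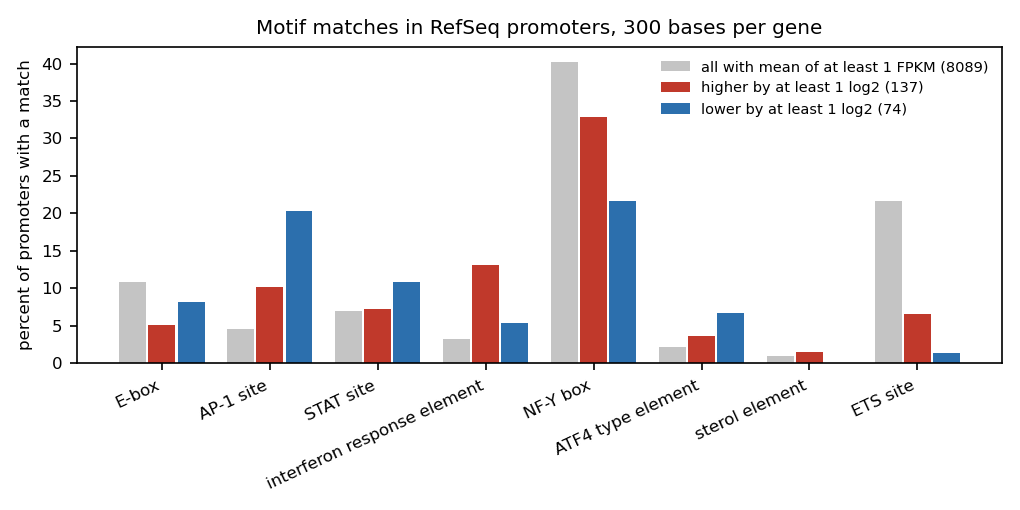
Bars give the percent of 300-base promoters with at least 1 match to each motif, for all genes that averaged 1 FPKM or more (grey, 8089), genes higher by at least 1 log2 (red, 137) and genes lower by at least 1 log2 (blue, 74). The AP-1 site stands out in blue at 20.3% and the interferon response element in red at 13.1%, while the ETS site is at 21.6% in grey and under 10% in both colours.

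The markers checked for the labelled cell type were present throughout. The summed level of 10 T cell markers was 1352 to 1541 FPKM with inosine alone and 1895 to 1942 FPKM with hypoxanthine, and 6 of the 10 rose and 1 fell. Among defining markers of 6 other cell types, the summed levels of 2 lay apart between the media. The summed level of 5 measured B cell markers was 1.401 to 1.68 FPKM with inosine alone and 1.376 to 1.69 FPKM with hypoxanthine, of 3 natural killer cell markers 0.106 to 0.572 FPKM with inosine alone and 0.265 to 0.377 FPKM with hypoxanthine, of Sox13, the 1 measured marker of gamma delta T cells, 0.0867 to 0.1103 FPKM with inosine alone and 0.102 to 0.124 FPKM with hypoxanthine, and of 3 markers of CD4 and regulatory T cells 4.31 to 6.49 FPKM with inosine alone and 5.38 to 6.34 FPKM with hypoxanthine, most of it Zbtb7b. These 4 ranges overlapped between the media. A longer list of 10 markers of CD4 and regulatory T cells had 3 that rose and none that fell, also in every fit that left out 1 library. Izumo1r, a folate receptor of regulatory T cells, was at 5.73, 1.79 and 3.43 FPKM with inosine alone and 33.4, 28.96 and 33.4 FPKM with hypoxanthine (log2 difference 2.91 ± 0.32, adjusted p = 0.00044). Ikzf2, which encodes Helios, was at 0.7598, 0.502 and 0.5399 FPKM and 0.955, 1.399 and 1.23 FPKM (log2 difference 0.45 ± 0.09, adjusted p = 0.0085; the call was lost without the 2 libraries of the highest mitochondrial share, adjusted p = 0.066). Both were without overlap. The defining marker Cd4 was at 0.0475, 0 and 0 FPKM with inosine alone and 0.0301, 0.0172 and 0.0166 FPKM with hypoxanthine. Foxp3 was at 0.0218, 0 and 0.0367 FPKM and 0.0281, 0.0256 and 0.0554 FPKM, so both were at or near 0 in all 6 libraries. The 5 erythroid cell and platelet markers summed to 0.1596 to 0.308 FPKM with inosine alone and 0.0761 to 0.136 FPKM with hypoxanthine, lower in every hypoxanthine library, with Pf4 listed at 0 and no marker passing. The 6 myeloid markers summed to 0.407 to 0.577 FPKM with inosine alone and 0.108 to 0.144 FPKM with hypoxanthine, also lower in every hypoxanthine library, and 1 of them, Cd14, fell from 0.3601, 0.389 and 0.526 FPKM to 0.101, 0.108 and 0.103 FPKM (log2 difference -0.37 ± 0.06, adjusted p = 0.0036).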

How the data were processed

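RNA-seq of 9 libraries was used, 3 per medium. The authors deposited FPKM per gene and library, group means of read counts divided by size factors (a signal that need not be whole), log2 fold changes, and p-values, per the file headers and the values; that the per-library columns are FPKM was inferred from the values. The submitters' processing notes list HISAT2, featureCounts, Subread 2.0.1, DESeq2 1.38.3 and the build mm10, without their roles, and strand handling is not given in the sources used here. The deposited log2 fold changes have the opposite sign to the FPKM columns, so directions were taken from the FPKM.

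Differences were tested with limma 3.58.1 (R 4.3.3) on log2(FPKM + 1), with trend and robust settings, over all 9 libraries and 20618 genes, with Benjamini-Hochberg adjustment at 0.05 and no covariates. All errors are standard errors of the log2 difference. Whole reads were recovered for 20588 genes (99.85%) by fitting the FPKM of each gene to the deposited group means, and gave the depth and 1 alternative (limma voom). The fit was also run on simulated data in which genes varied independently of each other. In these libraries a component followed the replicate number in both media, so the simulation gives no error rate for them.

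The comparison, the gene lists and the rule for named genes were chosen with earlier results of these data known. The rule takes the 12 largest rises and falls and the 10 largest gains and losses of FPKM among genes that passed. The rises and falls also needed a mean of at least 5 FPKM and no overlap between the media. It adds up to 3 members per list and direction by adjusted p with the 2 of highest FPKM. It also takes all genes of purine handling and PRMTs that averaged 1 FPKM or more, and genes of neighbouring runs. Among these, genes whose call held under every alternative were preferred for the text. Of the 12 largest rises, Ccl1 (the largest), Nrgn, Prss16, Lag3, Xcl1 and Nr4a2 are not given with values. Genes shown for their promoters alone (Ifi213, Ifi208, Ifi206, Ifi214, Gars and Plaur) were chosen after their values were seen. Of 1985 list entries in 63 lists, 1952 matched a gene of the tables, and 19974 genes matched RefSeq. Alternatives were other pseudocounts, a filter on low FPKM, median-of-ratios scaling, no trend or robust setting, only 6 libraries, a replicate block, each library left out, voom, and, chosen after seeing the data, leaving out the 2 libraries with the highest mitochondrial share (replicate 2 of both media).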

Additional observations from a re-analysis of the deposited data

How the results depend on the processing

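Under 19 alternatives the genes higher with hypoxanthine numbered 1542 to 2589 and those lower 1215 to 2199, against 2404 and 1978. After median-of-ratios scaling they were 2254 and 2199. By the authors' deposited adjusted p under 0.05, with directions as in the FPKM, 2217 genes were higher and 2324 lower. Which direction held more genes therefore depended on the processing. Leaving out 1 library at a time gave 1542 to 2464 higher and 1215 to 2023 lower. The lowest of both came without hypoxanthine replicate 3, where 61.1% of the 4382 calls remained, and the cause was not tested. By the ratio of mean FPKM, 842 genes were at least 2 times higher and 520 at least 2 times lower, against 179 and 94 on the log2(FPKM + 1) scale, which shrinks low values by construction. With the replicate number as a block the counts were 2109 and 1815, and 47 of 81 cytosolic ribosomal proteins rose against 18. With the block over 9 libraries 23 of 58 interferon-stimulated genes rose against 14. The numbers were not taken as pairs: same-numbered libraries correlated in their deviations at 0.411, 0.635 and 0.0177 (across 9947 genes), and inosine replicate 3 was closer to hypoxanthine replicate 1 (0.388). The genes given with values were 136, of which 129 passed; 127 did so under every alternative, and since such genes were preferred for the text this is no measure of stability. The exceptions were Ifi213, with an adjusted p of 0.005 to 0.11 over the alternatives, and Ikzf2, with 0.0018 to 0.088, both lost without the 2 libraries of the highest mitochondrial share and Ikzf2 also with the replicate block. Hprt passed with the replicate block, without hypoxanthine replicate 2 and without the 2 libraries of the highest mitochondrial share. Values near 0 changed sign. Carm1 was at -0.23 without inosine replicate 2, 0.05 without inosine replicate 1, 0.02 without inosine replicate 3 and 0.08 without hypoxanthine replicate 2. Il2ra was at -0.07 without inosine replicate 2, 0.07 without inosine replicate 1, 0.04 without hypoxanthine replicate 2 and 0.00 by voom. Slc43a3 was at -0.04 without inosine replicate 1, 0.05 without inosine replicate 2, 0.01 without hypoxanthine replicate 1, 0.01 by voom and 0.04 without the 2 libraries of the highest mitochondrial share. Cd4, near 0 FPKM, was at 0.03 without inosine replicate 1 and at -0.00 without inosine replicate 2, without inosine replicate 3 and without the 2 libraries of the highest mitochondrial share.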
